A study of Homo sapiens with 6 samples.

Results

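The BTG and TOB genes make up a small family of antiproliferative proteins, and their transcripts were followed here in A549 cells with and without cisplatin. The proteins share an amino-terminal domain that binds the catalytic subunits of CCR4-NOT, the complex that shortens the poly(A) tails of messenger RNAs. Several of them slow entry into S phase when they are overexpressed. BTG2 is a textbook target of the tumour suppressor p53, which A549 cells carry in wild-type form.

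The family was taken as 1 probe set given by its identifier, 201236_s_at, and the probe sets whose gene symbol in the platform's probe table is BTG1, BTG3, TOB1 or TOB2. This gave 4 probe sets of the 8746 on the array besides its controls. They are 201236_s_at and 1 each for BTG1, BTG3 and TOB1, and TOB2 was not analysed here. The probe table pairs 201236_s_at with no gene. The array's design assigns it to BTG2, so what is said of BTG2 rests on that assignment. The family was chosen from the results of the same comparison, because 201236_s_at was among the 19 probe sets of 6559 tested that differed between cisplatin and control. Its difference, and those of its relatives, are therefore given as a description and not as a test.

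Messenger RNA was measured on 6 single-colour oligonucleotide arrays of A549, an established line of human lung adenocarcinoma. On 3 arrays the cells had been exposed for 1 hour to 50 µM cisplatin, a platinum compound that crosslinks DNA, and on the 3 control arrays they had spent that hour in medium without drug. All cultures then stayed in drug-free medium for 10 hours before RNA was extracted. Per the series description the samples of each group came from 3 independent experiments of this 1 cultured line. Values are the deposited probe set intensities on a linear scale, each from 1 probe set. Intensities of different genes are therefore not strictly comparable, and those of the cell type markers serve only as a rough check of the cells. Arrays have no sequencing depth, and precision is limited by how many there were.

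Arrays were alike in overall level, with median intensities of 57.2 to 67.2, the highest on cisplatin 2. The ratio of the 3′ to the 5′ control probe set of ACTB, a measure of RNA integrity, ran from 2.20 to 2.98 on the control arrays and from 2.67 to 3.67 on the cisplatin arrays, with control 1 lowest and cisplatin 1 highest. Of 6 epithelial markers, the keratin genes KRT8, KRT18 and KRT7 were bright (lowest intensity on any array 1523), KRT19 lay between 120 and 152, and EPCAM and CDH1 were at or below 46.1 on all arrays. Of 10 markers of blood, endothelial and stromal cells 9 were measured, and their summed intensity was 349 to 376 in control and 342 to 414 in cisplatin cells. Their levels differed widely: over all arrays COL1A1 lay between 85.9 and 109, PECAM1 between 53.8 and 85.6 and COL1A2 between 40.3 and 80.1. CD14 reached 61.4, CD3E 55.1 and PDGFRB 50.6, and PTPRC, CDH5 and VWF were at or below 23.1. Of these genes 6 were tested between the groups and 0 passed. GAPDH had a log2 fold of -0.04 (SE 0.06).

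The annotated promoters of BTG2 and BTG1 are shown because BTG1 is the closest relative of BTG2 and the pair gave the largest and the smallest difference in the family. Each is the RefSeq window of 300 bases on GRCh38.p14, from 250 bases before the annotated start to 50 after, read 5′ to 3′ on the gene's strand. Capitals mark the motifs CCAAT (the CCAAT box), GGGCGG (the GC box), TATAAA (the TATA box) and TGACG (the core of a cyclic AMP response element), on either strand.
BTG2, chr1:203305269-203305568, plus strand: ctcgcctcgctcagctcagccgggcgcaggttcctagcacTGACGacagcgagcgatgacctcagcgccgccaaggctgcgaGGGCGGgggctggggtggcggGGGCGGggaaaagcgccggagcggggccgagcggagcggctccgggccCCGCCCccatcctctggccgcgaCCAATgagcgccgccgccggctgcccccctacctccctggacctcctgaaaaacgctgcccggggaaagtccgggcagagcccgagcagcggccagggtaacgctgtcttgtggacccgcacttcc
BTG1, chr12:92145797-92146096, minus strand: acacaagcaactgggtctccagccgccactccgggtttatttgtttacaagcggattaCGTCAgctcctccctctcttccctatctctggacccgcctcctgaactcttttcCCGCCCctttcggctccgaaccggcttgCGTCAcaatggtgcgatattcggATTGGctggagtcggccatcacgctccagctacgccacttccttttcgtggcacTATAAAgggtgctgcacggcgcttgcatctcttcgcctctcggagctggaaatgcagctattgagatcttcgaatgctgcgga
The BTG2 window held 3 GC boxes and a CCAAT box whose first base lies 76 bases before the start, with no TATAAA. The BTG1 window held 1 GC box, a CCAAT box 87 bases before the start and TATAAA 33 bases before it. TGACG was found once in the BTG2 window and at 2 places in that of BTG1. G and C made up 73.3% of the BTG2 window and 56% of the BTG1 window, where the median over all 35116 RefSeq windows of this length was 58.7%.

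RefSeq gave windows for all 4 genes, 5 in all because TOB1 has 2 annotated starts. The BTG3 window (chr21:17612852-17613151, minus strand, 77.3% G and C) held 3 GC boxes and none of the other motifs. One TOB1 window (chr17:50866305-50866604, minus strand, 78.7% G and C) held 3 GC boxes, a CCAAT box and TGACG, and the other (chr17:50867929-50868228, minus strand, 41.3% G and C) held none of the motifs searched. GGGCGG was thus in 4 of the 5 windows and in 45% of all windows, CCAAT in 3 of 5 and in 34.6%, TGACG in 3 of 5 and in 24.6%, and TATAAA in 1 of 5 and in 11.5%. A perfect p53 half-site was in 0 of the 5 windows and in 6.63% of all windows. Half-sites with mismatches were not searched for, so this says only that no exact match lies in these windows of 300 bases. These matches describe the sequence and are not shown to be binding sites.

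Treated and drug-free cells were compared to see how far each transcript of the family differed 10 hours after a short cisplatin exposure. The probe set 201236_s_at rose, with a mean intensity 2.82 times that of control. BTG3 and TOB1 had ratios of 1.42 and 1.32 and did not pass the test, and the BTG1 groups overlapped. With limma and Benjamini-Hochberg adjustment over all 6559 tested probe sets, 1 of the 4 members passed the threshold of 0.05 and 3 did not. Of all tested probe sets 0.290% passed, 0.213% upward and 0.0762% downward. The median log2 fold of the 4 members was 0.44, beside 0.04 over all tested probe sets. Nothing is read from these counts, since the comparison itself picked the family.

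**Figure D1:**
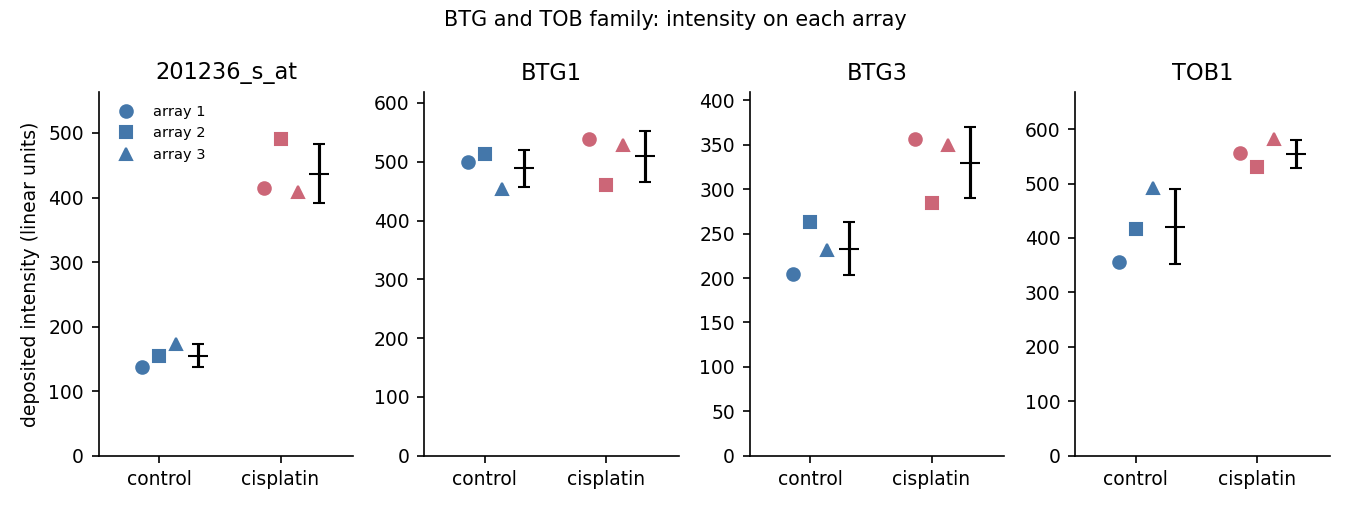
Deposited intensity (linear units, axis from 0) of the 4 family probe sets on each of the 3 control arrays (blue) and 3 cisplatin arrays (red), with the marker shape giving the replicate number and the black bars the mean ± SD. All 3 cisplatin values of 201236_s_at, between 408 and 490, lie above its control values of 137 to 173, BTG3 and TOB1 are separated by smaller gaps, and the BTG1 groups overlap.

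BTG2 is an immediate early and DNA damage-inducible member of the family. The control arrays gave 201236_s_at intensities of 137, 155 and 173 (replicates 1 to 3), and the cisplatin arrays gave 414, 490 and 408. The lowest cisplatin value exceeded the highest control value by 234 units, while the values spanned 35.9 units within control and 82.1 units within cisplatin. Means were 155 ± 18 and 437 ± 45.6 (SD, n = 3 each), a ratio of 2.82. On the log2 scale with the offset of 11.8 used for the fit, the difference was 1.43 (SE 0.13, 95% interval 1.13 to 1.73). This corresponds to 2.69-fold, and it is smaller than the ratio of means because the offset pulls folds of dim probe sets towards 1. Ranked by unadjusted p in limma, 201236_s_at was in place 5 of all tested probe sets, and its adjusted p of 0.00167 is the value through which it was picked. Measured against the control mean, the cisplatin arrays were higher by 1.36, 1.59 and 1.34 on the log2 scale, with cisplatin 2 the highest.

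BTG1 encodes the relative closest to BTG2 and is known as a translocation partner in lymphoid leukaemia. In the same replicate order, intensities were 499, 514 and 453 in control cells and 538, 460 and 528 in cisplatin cells. The groups overlapped, with cisplatin 2 below control 1 and control 2, and in 7 of 9 pairings the cisplatin array was the brighter. Means were 489 ± 31.6 and 509 ± 42.8 (SD, n = 3 each). The log2 fold was 0.06 (SE 0.11, 95% interval -0.19 to 0.30), which in linear terms runs from 0.876-fold to 1.23-fold. Its direction was not settled, as it was -0.02 with each array centred on its median.

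BTG3, also called ANA, encodes a more distant member of the family that has been described as a binding partner of E2F1. The 3 control intensities were 204, 263 and 232, and those after cisplatin were 356, 284 and 350. The groups did not overlap, but the gap of 20.4 units between cisplatin 2 and control 2 was smaller than the range of 59.4 units within control. Means were 233 ± 29.7 and 330 ± 40.1 (SD, n = 3 each). The log2 fold was 0.48 (SE 0.14, 95% interval 0.16 to 0.80), or 1.4-fold, and did not pass (adjusted p = 0.565, limma). The interval is that of a single probe set, with no adjustment for the number tested.

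TOB1, transducer of ERBB2, encodes one of the longer family members, which also binds the cytoplasmic poly(A)-binding protein. It was measured at 355, 417 and 492 units in the control cultures and at 556, 530 and 581 units in the treated ones. All cisplatin values lay above all control values, by 37.9 units at the closest, and the control arrays spanned 136 units against 51.2 for cisplatin. Means were 421 ± 68.3 and 555 ± 25.6 (SD, n = 3 each). The log2 fold was 0.40 (SE 0.13, 95% interval 0.11 to 0.69), or 1.32-fold, and did not pass (adjusted p = 0.656, limma).

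In 3 of the 4 members, 201236_s_at, BTG3 and TOB1, each cisplatin array was brighter than each control array. The same held for 487 of all tested probe sets (7.42%), and groups separated in either direction for 11.0%. An unadjusted p under 0.05 was found for 5.03% of all tested probe sets and for 3 of the 4 members. With 3 arrays against 3, an exact test of a single probe set cannot go below 0.1, so none was run. BTG4, a relative outside the family as chosen here that is known from germ cells, had control intensities of 88.3, 112 and 103 and cisplatin intensities of 102, 141 and 102. Its groups overlapped, with a log2 fold of 0.16 (SE 0.17, 95% interval -0.21 to 0.53).

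**Figure D2:**
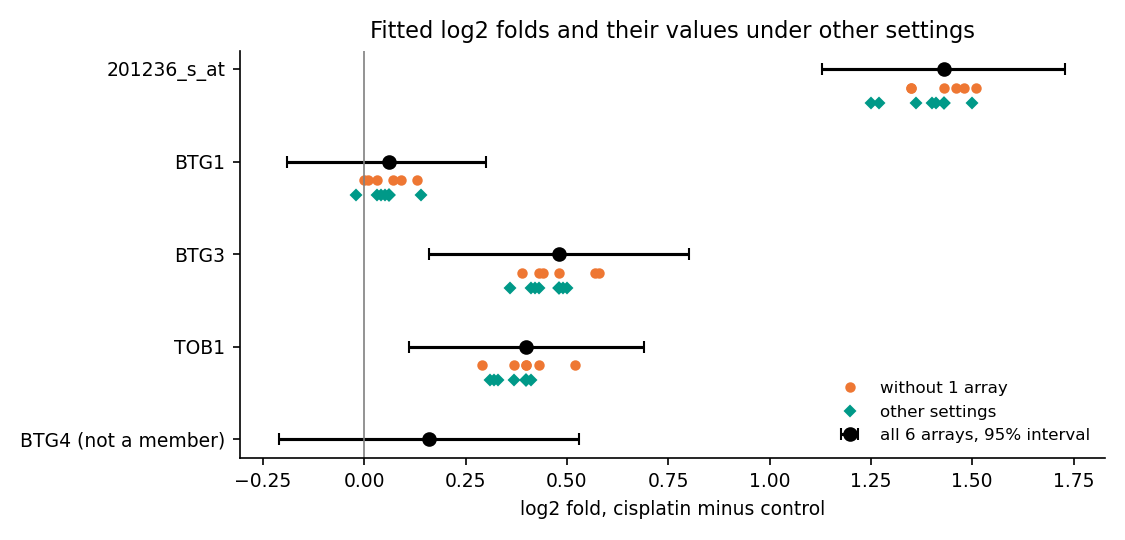
Fitted log2 fold (cisplatin minus control) of the 4 family probe sets and of BTG4. Black points and bars are the fit on all 6 arrays with its 95% interval, orange points the 6 fits without 1 array, and green points the other settings, which were kept for the members alone. The interval of 201236_s_at runs from 1.13 to 1.73, those of BTG3 and TOB1 lie above 0 and below 0.80, and that of BTG1 includes 0.

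The arrays at the edges of these groups were partly shared between members. Control 1 was the lowest control array for 201236_s_at, BTG3 and TOB1, and it also had the lowest ACTB 3′/5′ ratio (2.20). Cisplatin 2 was the lowest cisplatin array for BTG1, BTG3 and TOB1 and the highest for 201236_s_at. Without control 1 the log2 folds were 1.35 for 201236_s_at, 0.39 for BTG3 and 0.29 for TOB1. With the 3′/5′ ratio as a covariate they were 1.41, 0.36 and 0.31, and without both control 1 and cisplatin 2 they were 1.27, 0.49 and 0.32. Under these settings 201236_s_at kept its call and BTG3 and TOB1 had none.

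The 5 probe sets whose profile over the 6 arrays was most like that of 201236_s_at were sought among the other 6558 tested, by the root mean square difference of log2 values after subtracting each probe set's own mean. Nearest was SESN1, which encodes a stress-induced sestrin, with a difference of 0.20. Next came PPM1D, a phosphatase gene of the damage response, with 0.21, and the repair genes XPC with 0.23 and DDB2 with 0.24. The fifth was 207813_s_at, which the probe table pairs with no gene, with 0.25. All 5 were among the 19 called probe sets, with log2 folds of 1.00 to 1.82. They were found through the same difference between groups, so the likeness describes its size and adds no support. BTG3 and TOB1 were in places 105 and 136 of that ranking and BTG1 in place 3000. Within the family BTG3 and TOB1 were nearest to each other, with a difference of 0.15, and BTG1 was nearest to BTG3, with 0.24.

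**Figure D3:**
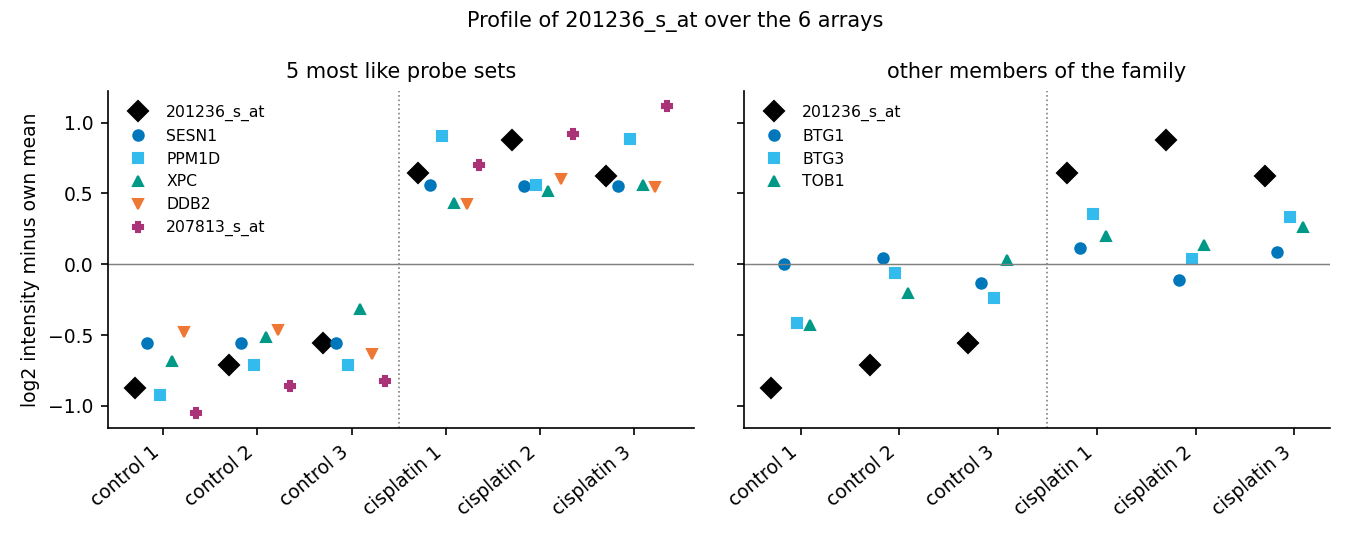
Log2 intensity minus each probe set's own mean on the 6 arrays for 201236_s_at (black diamonds), with the 5 most like probe sets on the left and the other 3 family members on the right. The 5 on the left lie below their means on the control arrays and above them on the cisplatin arrays, with log2 folds of 1.00 to 1.82, while those of BTG3, TOB1 and BTG1 are 0.48, 0.40 and 0.06.

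BTG and TOB proteins act through CCR4-NOT, and the genes of that machinery were examined next. Of 12 listed genes of the complex 5 were tested, and 0 passed in either direction, where 0.290% of all tested probe sets passed. With so low a share, 0 calls in this and the other short lists do not show that their genes were unchanged. CNOT7 and CNOT8 are the catalytic subunits to which the family binds. CNOT7 had an intensity of 1063 ± 98.7 in control and 1047 ± 139 in cisplatin cells (log2 fold -0.03, 95% interval -0.29 to 0.24). CNOT8 had 199 ± 13 and 213 ± 19.1 (0.09, -0.19 to 0.37; SD, n = 3 each). The scaffold-bound subunit CNOT2 had a log2 fold of -0.13 (95% interval -0.55 to 0.28), and the complex's 5 genes had a median of -0.03.

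Of 5 tested genes for other deadenylases and poly(A)-binding proteins 0 passed, with log2 folds of -0.07 to 0.16. The lowest unadjusted p belonged to PABPN1, the nuclear poly(A)-binding protein gene (0.16), and PABPC3, a relative of PABPC1 (0.04). PABPC1 and PABPC3 are very similar in sequence, so their probe sets may share signal. Of 10 tested decapping and 5′ decay genes 0 passed, with log2 folds of -0.29 to 0.21, LSM2 (0.20) and DCP1A (-0.23) having the lowest unadjusted p. Of 4 tested genes for proteins that bring the deadenylase to messenger RNAs 0 passed, ZFP36L2 at -0.16 and ZFP36L1 at -0.19 among them. Over the 4 lists together, 24 genes had a median log2 fold of -0.05, and in limma 0 passed after adjustment. An unadjusted p under 0.05 was found for 0 of the 24, beside 5.03% of all tested probe sets. The 95% intervals of CNOT7 and CNOT8 give the sizes of difference that these arrays leave possible for the subunits the family binds.

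Of 12 tested partners and modifiers of the family 0 passed. In limma 1 gene had an unadjusted p under 0.05, as had 5.03% of all tested probe sets, so nothing is read from it. That gene was RPS6KA1, a kinase of the RSK family that phosphorylates TOB1, with 77.4 ± 11.2 in control and 107 ± 7.29 in cisplatin cells (log2 fold 0.42, adjusted p = 0.75, limma; SD, n = 3 each). CHEK1, the checkpoint kinase gene, had a log2 fold of -0.28 (SE 0.16). PRMT1, the arginine methyltransferase gene whose product binds BTG1 and BTG2, varied widely within each group and had -0.31 (SE 0.28).

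BTG2 and TOB1 have been described as lowering cyclin D1, and the G1 cyclins with the RB axis formed a further list. Of its 8 tested genes 0 passed in limma, and their median log2 fold was 0.10. An unadjusted p under 0.05 was found for 0 of the 8 and for 5.03% of all tested probe sets. With so low a share, this count does not show that the genes were unchanged. CCND1 itself, the cyclin D1 gene, was added after its value was seen, with 206 ± 43.4 in control and 198 ± 35.8 in cisplatin cells (log2 fold -0.05, 95% interval -0.45 to 0.35; SD, n = 3 each). RBL2 (0.24) and RB1 (0.37) had the lowest unadjusted p of the list.

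Of 22 tested p53 target genes other than BTG2, 11 rose and 0 fell, where 0.213% of all tested probe sets passed upward. Their median log2 fold was 0.69, beside 0.04 over all tested probe sets. MDM2, GDF15 and TNFRSF10C were also on the array, but the intensity filter left them untested. The list was drawn up with earlier results of these samples known and is no independent evidence of its direction. The largest rises were those of CDKN1A (log2 2.42), FAS (1.98), PPM1D (1.56) and GADD45A (1.24). The log2 fold of 201236_s_at, 1.43, lay between those of PPM1D and GADD45A, while BTG3 and TOB1 lay below the median of the list. Without 1 array, 4 to 12 of these genes passed, the lowest count being reached without control 2, without cisplatin 1 and without cisplatin 3, and 6 passed without control 3. With arrays centred on the median 6 passed, without the intensity trend 5, and with the replicate number as a block 3.

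**Figure D4:**
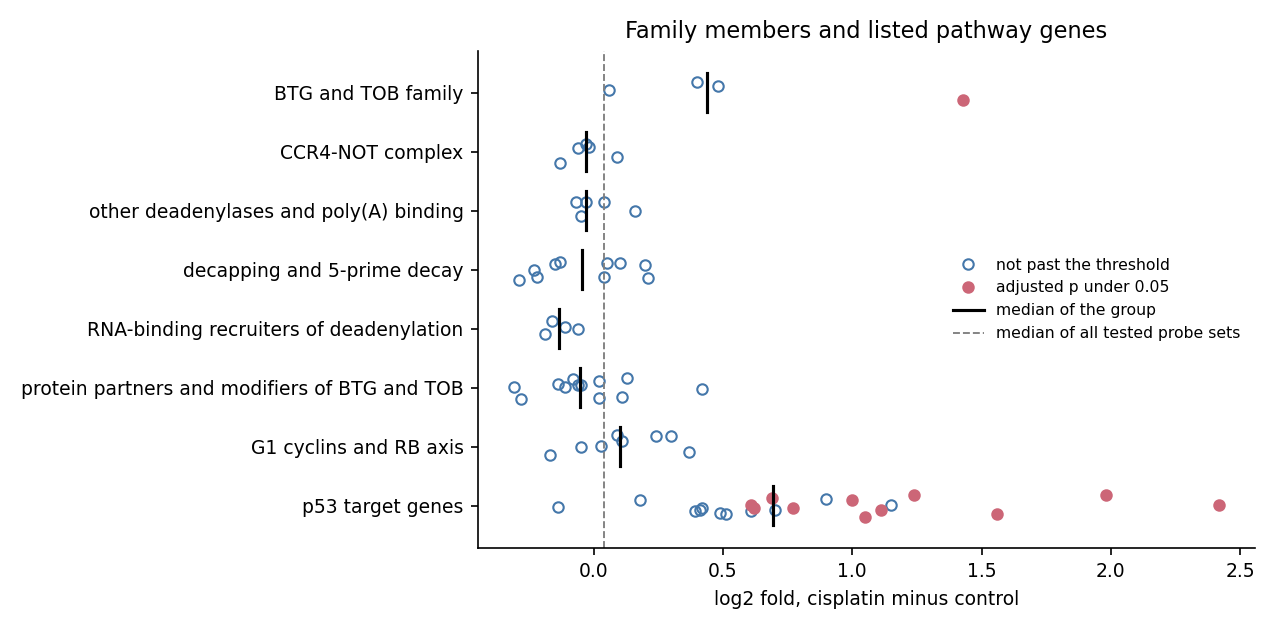
Log2 fold (cisplatin minus control) of the 4 family probe sets and of each tested gene of 7 lists, with filled red points past an adjusted p of 0.05 in limma, black bars at the median of each group and the dashed line at the median of all tested probe sets, 0.04. The 4 mRNA decay lists lie between -0.29 and 0.21, and the p53 target list reaches 2.42. Points are spread vertically for legibility.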

How the data were processed

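The authors deposited probe set intensities from 6 single-colour arrays on a linear scale. Of these values, control probe sets included, 723 of 52758 are at or below 0. How they were background-corrected, summarised and scaled is not given in the sources used here. Values below 0 were set to 0, an offset of 11.8 (the 10th percentile of positive values) was added and log2 was taken. The 75th percentiles of the arrays spanned 0.154, under the limit of 0.3, so no scaling was added. Without 47 control probe sets and those under the 25th percentile of mean log2, 6559 of 8746 were tested, including all 4 members.

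Cisplatin was compared with control (3 arrays each) by a two-sided moderated linear model (limma 3.58.1, R 4.3.3; lmFit, then eBayes with its intensity trend), Benjamini-Hochberg adjusted over all tested probe sets at 0.05, with 4 residual and 5.54 prior degrees of freedom. The model and its adjustment were tried on simulated log2 values, which did not cover the flooring, offset, filter or scaling.

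Symbols are those of the platform's probe table (7840 probe sets with 1, 388 with several, 518 with none; 7838 matched RefSeq, GRCh38.p14, by Entrez identifier). A listed gene is represented by its brightest tested probe set. The members and lists were chosen with earlier results of these data known. Named were every member, up to 4 called genes of each list or, where none was called, the 2 of lowest unadjusted p, CNOT7, CNOT8, GAPDH, ACTB (named by control probe sets alone, so untested) and the 5 probe sets most like the leading member. BTG4, CNOT3, PABPC1, PRMT1 and CCND1 fall outside that rule and were added after their values were seen. Cell type markers are given as a check of the cells, all that were measured. Motifs were searched on both strands. Alternatives covered scaling, offset, filter, variance prior, replicate block, RNA integrity and arrays left out. Figures were drawn with matplotlib 3.10.9.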

Additional observations from a re-analysis of the deposited data

How the results depend on the processing

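The probe set 201236_s_at passed under all 16 alternatives, with log2 folds of 1.25 to 1.51 and adjusted p of 0.000318 to 0.0292 in limma, and BTG3 (0.36 to 0.58) and TOB1 (0.29 to 0.52) passed under 0 of 16 but kept their direction. BTG1 reversed to -0.02 with arrays centred on the median and was otherwise between 0.00 and 0.14. The number of members called was 1 under every alternative, and 0 genes of the pathway lists outside the p53 targets were called under any. The cell type markers were not counted there. Against 19 probe sets and 11 listed genes, 11 and 6 passed with arrays centred on the median, and 8 and 5 without the intensity trend. With the 3′/5′ covariate 47 probe sets passed. Leaving out 1 array gave 6 to 18 probe sets and 4 to 12 listed genes, with 18 and 12 without control 1, 6 and 4 without control 2, 8 and 6 without control 3, 6 and 4 without cisplatin 1, 11 probe sets without cisplatin 2, and 7 and 4 without cisplatin 3. Without both control 1 and cisplatin 2, 20 and 13 passed. The causes of these shifts were not tested.

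With the replicate block, 5 probe sets and 3 listed genes passed, and 201236_s_at kept its call (log2 1.43, adjusted p = 0.0292, limma). Deviations of arrays with equal numbers correlated at -0.56, -0.31 and -0.12 across probe sets. With 3 arrays per group these values cannot settle whether equal numbers share an experiment, and the sample labels do not say. Signal over background limits the dim genes, of which CNOT3 and RB1 had mean intensities of 23.2 to 32.9.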
